A study of Mus musculus with 24 samples.

Results

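The suppressor of cytokine signaling (SOCS) family was followed through its 8 members, Socs1, Socs2, Socs3, Socs4, Socs5, Socs6, Socs7 and Cish. The members were taken by symbol from the GENCODE M21 annotation, and each symbol matched a single Ensembl identifier. No rule on measured values was used, but the choice was made with earlier results of these data known. They were 8 of 54532 genes in the count tables. RNA-seq counts came from heart, stomach, muscle and tongue of mice that all lacked Trex1 (Trex1-KO, a DNA exonuclease), with 3 libraries from mice given SN-011, an antagonist of the DNA-sensing adaptor STING, and 3 control libraries in each tissue, which gave 8 groups and 24 libraries. Per the labels, treated mice received 5 mg/kg of SN-011, 3 times per week for 4 weeks, and controls received none. The study's methods instead describe 1-month-old mice injected intraperitoneally each day for 2 weeks with 10 mg/kg or with a vehicle of 1% Tween 80 in PBS, and which of the schedules applied to these libraries was not settled here. Because the controls carried the same deletion, every difference below lies within Trex1-KO mice. Each is between SN-011 and control libraries, between tissues, or between tissues in the SN-011 effect, and no wild-type level was set beside it.

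SOCS proteins are feedback inhibitors of cytokine receptors. A cytokine activates receptor-bound JAK kinases, these phosphorylate STAT factors, and the STATs then switch on SOCS genes whose products dock on the same receptors or kinases through an SH2 domain and, through the SOCS box, recruit an ubiquitin ligase built on elongins B and C and the scaffold Cul5. Socs1 restrains interferon signaling, and Socs3 restrains receptors that use gp130, such as that of interleukin 6, through STAT3. Cish and Socs2 are induced through STAT5 and restrain growth hormone and related signals, while Socs4, Socs5, Socs6 and Socs7 are better known for acting on receptor tyrosine kinases such as those of epidermal growth factor, stem cell factor and insulin. Trex1 loss leaves DNA in the cytosol, which drives STING and interferon production.

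Binding motifs of these factors were sought near the starts of the members, and the stretches below are shown because Socs1 and Socs3, the members with the most alike patterns across libraries, held different ones. RefSeq promoter windows on GRCm38.p6, running from 250 bases before the start to 50 bases from it, were at hand for 4 of the 8 members, namely Socs1, Socs3, Socs4 and Cish. Both strands were searched for TTCNNNGAA, the palindrome that STATs recognise, for TTCNNNNGAA, the same with a wider gap, and for GAAANNGAAA, a pair of the GAAA cores that interferon regulatory factors read. Capitals mark the matches, and sequences run 5′ to 3′ on the gene's strand.
Socs1: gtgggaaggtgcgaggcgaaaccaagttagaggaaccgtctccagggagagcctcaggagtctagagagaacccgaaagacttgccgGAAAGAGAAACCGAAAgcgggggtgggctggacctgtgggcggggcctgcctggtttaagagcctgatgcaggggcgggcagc
Socs3: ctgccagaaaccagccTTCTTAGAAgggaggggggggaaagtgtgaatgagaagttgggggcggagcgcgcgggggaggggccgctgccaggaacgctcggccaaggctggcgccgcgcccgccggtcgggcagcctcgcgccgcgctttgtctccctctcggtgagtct
Cish: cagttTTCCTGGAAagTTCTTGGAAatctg
The Socs1 stretch, chr16:10785537-10785706 on the minus strand, covers the 170 bases before the start and holds 2 overlapping matches to GAAANNGAAA, 83 to 68 bases before it. That motif was in 3.43% of the 32817 promoter windows searched. The Socs3 stretch, chr11:117969367-117969536 on the minus strand, holds 1 match to TTCNNNGAA whose first base lies 154 bases before the RefSeq start. It falls within the GENCODE span of the gene, upstream of the coding transcript and inside noncoding ones. The Cish stretch, chr9:107296654-107296683 on the plus strand, is 30 bases around 2 matches to TTCNNNGAA that begin at the RefSeq start itself, in the first exon and 5′ untranslated part of the longer GENCODE transcript. TTCNNNGAA was in 8.29% of the windows and TTCNNNNGAA, which none of the 4 members held, in 6.94%. The Socs4 window held none of the 3 motifs. A match of letters is a description only, and no binding was measured.

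In GRCm38 coordinates of GENCODE M21, all 8 members are protein-coding genes. Socs1 lies at chr16:10782240-10785536, Socs2 at chr10:95385362-95417180, Socs3 at chr11:117966079-117970047, Socs4 at chr14:47276931-47296102, Socs5 at chr17:87107679-87137839, Socs6 at chr18:88665224-88927481, Socs7 at chr11:97362551-97398542 and Cish at chr9:107296026-107302784. Socs6 spans other annotated genes without sharing exons with them, and Cish overlaps exons of Gm17040 and Gm17041 on the other strand. Since the strand setting of the counting is not given in the sources used here, reads of Cish and of these transcripts may not have been told apart.

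Libraries held 14253416 to 18443329 counts (median 16221409), so that 3 counts, taken as the floor of detection, stood for 0.163 to 0.210 CPM (counts scaled to a common library size), by counting error alone. All 8 members passed the filter on low counts in all 4 tissues. Control replicate 1 of each tissue came from a female by its Xist counts (3060 to 13811, against 0 to 20 elsewhere), while the other libraries had Ddx3y counts of 825 or more. The library of SN-011 replicate 2 in muscle had counts for 11546 genes, against at least 19798 in every other library, and control replicate 2 in muscle stood apart in several members. Defining markers of each labelled tissue summed in it to at least 22546 CPM in heart, 3978 CPM in stomach, 107839 CPM in muscle and 12566 CPM in tongue. The 4 stomach markers found also had counts elsewhere, with a sum of up to 898 CPM in tongue controls and 722 CPM in heart controls against at most 16.0 CPM in SN-011 libraries of heart, muscle and tongue. Trex1 had 0 counts in all libraries, but it shares annotated sequence with Atrip, so this does not check the genotype. The labels do not say whether libraries of a group came from separate mice, so p-values measure the spread between libraries. Nor do they say whether libraries of different tissues shared mice, though control replicate 1 was the female in all 4 tissues. The joint fits of all 24 libraries treated them as independent.

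Across the members, SN-011 moved none past the threshold in any tissue in edgeR's quasi-likelihood test. P-values were adjusted by Benjamini-Hochberg across every gene tested in the tissue, and a gene was called at an adjusted p under 0.05. Among all genes tested, 0.848% were called in heart, 0% in stomach, 0.0141% in muscle and 0% in tongue, so few calls were made of any gene. At an unadjusted p under 0.05 the test marked 3 of 8 members in heart, 2 in stomach, 2 in muscle and 3 in tongue, where 22.4%, 24.6%, 14.8% and 12.5% of all genes tested were so marked. DESeq2 called 2 members in heart (Socs1 and Socs3) and 1 each in stomach (Socs2), muscle (Socs7) and tongue (Socs1), but it called 8.43%, 14.03%, 6.20% and 2.52% of all genes tested in the same tissues. The median log2 fold change of the 8 members, SN-011 minus control, was 0.07 in heart, 0.43 in stomach, -0.71 in muscle and -0.36 in tongue, beside medians of -0.01, 0.00, -0.08 and -0.01 over all genes tested. In bulk tissue, fewer cells of a type and less RNA per cell cannot be told apart.

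**Figure D1:**
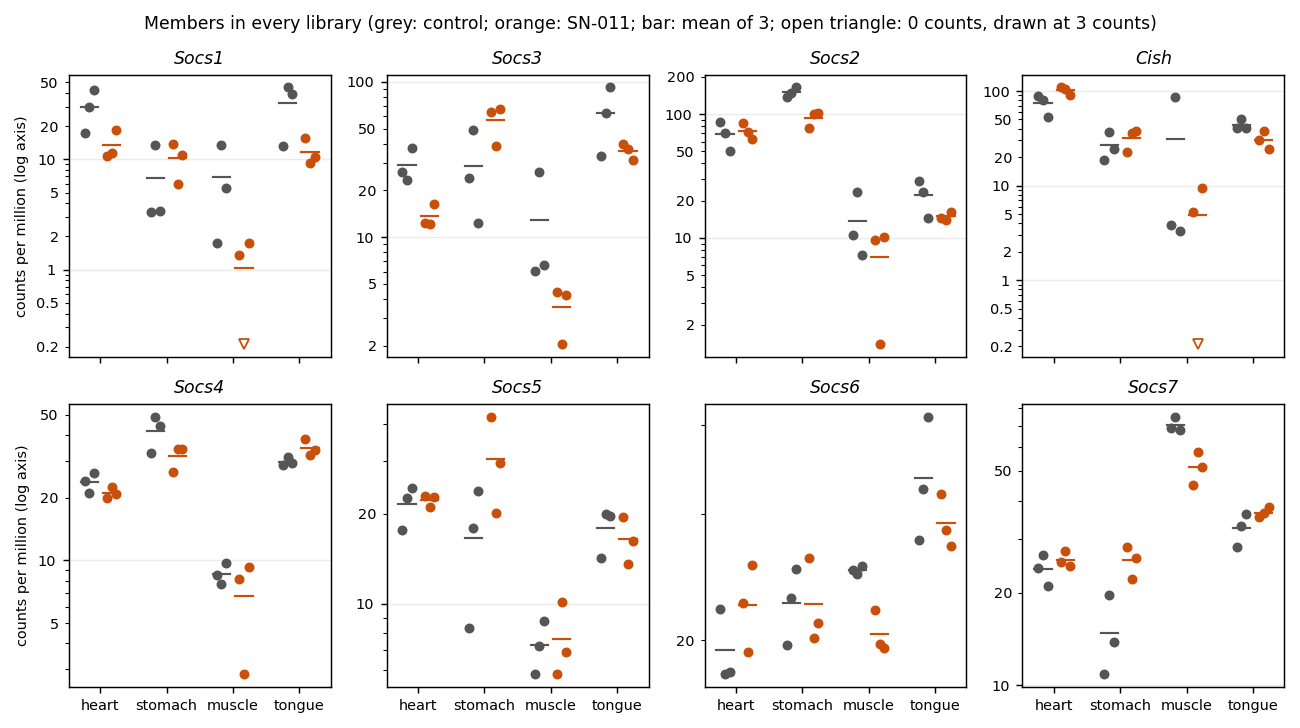
CPM of the 8 members in all 24 libraries, on log axes, with control libraries in grey and SN-011 libraries in orange; bars are means of 3 libraries and open triangles mark libraries with 0 counts, drawn at the level of 3 counts. Mean levels of Socs1 and Socs3 are lower with SN-011 in heart, muscle and tongue but not in stomach, where Socs7 is higher in all 3 SN-011 libraries and Socs2 lower in all 3.

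Socs3, the inhibitor of gp130 receptors, gave the smallest adjusted p of any member. In heart it was at 26.3, 23.3 and 37.7 CPM in controls 1, 2 and 3 and at 12.4, 12.2 and 16.4 CPM with SN-011. All SN-011 libraries lay below all controls, as they did for 13.1% of all genes tested in heart. The means were 29.1 ± 7.59 CPM in controls and 13.6 ± 2.39 CPM with SN-011 (SD, n = 3 each), a fitted log2 fold change of -1.09 (SE 0.21, 95% interval -1.56 to -0.62). The adjusted p in edgeR's quasi-likelihood test was 0.0543, just outside the threshold, and an exact two-sided permutation test gave 0.1, the smallest p that 3 against 3 libraries allow. The value was past the threshold under 7 of 14 other settings, and without the female control it was -1.18 (edgeR adjusted p = 0.0628). Stomach markers in heart summed to 8.22 to 722 CPM in controls and 2.28 to 16.0 CPM with SN-011, and heart macrophage markers to 1310 to 1691 against 1182 to 1771 CPM. The part of the stomach transcripts in these differences was not tested.

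Socs1, the inhibitor of interferon receptors, gave a like picture in heart with more spread. Its levels were 17.5, 29.8 and 42.8 CPM in controls and 10.6, 11.5 and 18.4 CPM with SN-011, so that the lowest control lay under the highest SN-011 library. The log2 fold change was -1.15 (SE 0.32, 95% interval -1.88 to -0.42; edgeR adjusted p = 0.102; exact permutation p = 0.2). In the joint fit of all 24 libraries it was -1.16 (edgeR adjusted p = 0.898). The lowest control was the female, and without it the value was -1.45 (edgeR adjusted p = 0.0511). The highest control for both genes was replicate 3, without which Socs1 was at -0.81 (edgeR adjusted p = 0.233) and Socs3 at -0.87 (edgeR adjusted p = 0.106). That library also had the highest sums of B cell markers (314 CPM, against 6.81 to 148 CPM in the other heart libraries), adipocyte markers (216 CPM, against 0.202 to 83.5 CPM) and T cell markers (197 CPM, against 86.2 to 156 CPM). Their part in the result was not tested.

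In tongue, both genes had high levels in controls 2 and 3. Socs1 was at 13.4, 44.9 and 39.3 CPM in controls and at 15.5, 9.19 and 10.6 CPM with SN-011. Socs3 was at 33.2, 63.3 and 92.2 CPM in controls and at 39.5, 37.2 and 31.3 CPM with SN-011. Control 1, the female, fell among the SN-011 libraries for both genes. The log2 fold changes were -1.47 for Socs1 (SE 0.44; edgeR adjusted p = 0.310) and -0.80 for Socs3 (SE 0.34; edgeR adjusted p = 0.398). Without control replicate 1 both passed the threshold, at -1.84 (edgeR adjusted p = 0.00343) and -1.11 (edgeR adjusted p = 0.00959), where 12.5% of all genes tested were called. Without control replicate 2 Socs1 was at -1.17 (edgeR adjusted p = 0.707), and without control replicate 3 Socs3 was at -0.43 (edgeR adjusted p = 0.629). Controls 2 and 3 also had the most stomach transcripts (898 and 704 CPM, against 17.6 CPM in control 1 and 5.50 to 11.2 CPM with SN-011) and the most keratin of tongue epithelium (37457 and 54418 CPM, against 12566 CPM and 16042 to 23862 CPM), and control 3 had 366 CPM of neutrophil markers against at most 5.79 CPM in the other tongue libraries. Heart muscle markers in tongue summed to 147 to 232 CPM in controls and 111 to 140 CPM with SN-011. The part of these in the result was not tested.

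In muscle, the means of both genes were lower with SN-011, and the size of these differences leaned on single libraries. Socs1 was at 1.74, 13.4 and 5.55 CPM in controls and at 1.36, 0 and 1.76 CPM with SN-011. Socs3 was at 6.02, 26.1 and 6.66 CPM in controls and at 4.41, 2.04 and 4.25 CPM with SN-011. Control 2 was the highest for both genes and SN-011 replicate 2 the lowest. For Socs3 the groups did not overlap, as was so in this direction for 19.8% of all genes tested in muscle. Its log2 fold change of -1.85 (SE 0.68; edgeR adjusted p = 0.295) became -0.55 (edgeR adjusted p = 0.148) without both libraries, a setting added after the values were seen. For Socs1, -2.70 (SE 1.32; edgeR adjusted p = 0.406) became -1.22 (edgeR adjusted p = 0.247). Both values thus kept their sign without these libraries. Stomach markers summed to 17.8 to 236 CPM in muscle controls and 0 to 9.81 CPM with SN-011, endothelial markers to 216 to 258 against 161 to 185 CPM, skeletal muscle markers to 107839 to 121813 against 132912 to 157149 CPM, and macrophage markers to 284 to 339 against 383 to 421 CPM. The part of these in the result was not tested.

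Stomach differed from the other tissues in sign. Socs3 was at 23.9, 49.3 and 12.4 CPM in controls and at 64.4, 38.9 and 66.8 CPM with SN-011, overlapping groups with a log2 fold change of 0.99 (SE 0.47; edgeR adjusted p = 0.232). Socs1 was at 3.31, 13.6 and 3.37 CPM in controls and at 13.9, 6.002 and 10.99 CPM with SN-011, a log2 fold change of 0.61 (SE 0.61; edgeR adjusted p = 0.571). Control 2 was the highest control for both genes, and without it the values were 1.65 for Socs3 and 1.63 for Socs1 (edgeR adjusted p = 0.205 and 0.224). Without control 3 Socs3 was at 0.61 (edgeR adjusted p = 0.315), and without control 1 Socs1 was at 0.25 (edgeR adjusted p = 0.825). The composition of the stomach libraries moved with the group: all 4 keratins marking stratified epithelium were found, and their sum was 106 to 232 CPM in controls and 438 to 1446 CPM with SN-011, while stomach markers summed to 13982 to 52821 CPM in controls and 3978 to 16506 CPM with SN-011. Neutrophil markers summed to 0.645 to 3.21 CPM in controls and 4.68 to 10.5 CPM with SN-011, and endothelial markers to 53.1 to 84.8 against 86.1 to 117 CPM. The part of this shift in the stomach results, for these and the other members, was not tested.

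Cish, which answers to STAT5, had a positive value in heart, where those of Socs1 and Socs3 were negative. Cish in heart was at 88.6, 81.3 and 52.8 CPM in controls and at 109, 105 and 91.8 CPM with SN-011. All SN-011 libraries lay above all controls, as for 14.1% of all genes tested in heart, and the log2 fold change was 0.46 (SE 0.18; edgeR adjusted p = 0.188). Cish in tongue went the other way, with 40.9, 50.6 and 40.3 CPM in controls and 30.1, 37.5 and 24.2 CPM with SN-011. There all SN-011 libraries lay below all controls, as for 8.38% of all genes tested in tongue, and the log2 fold change was -0.52 (SE 0.19; edgeR adjusted p = 0.367). In stomach the groups overlapped, with a log2 fold change of 0.25 (SE 0.32; edgeR adjusted p = 0.656).

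Muscle Cish was set by a single library. It was at 3.80, 87.0 and 3.33 CPM in controls and at 5.32, 0 and 9.41 CPM with SN-011. Control 2 thus held 25.7 times the FPKM (the level per exon length) of the lowest control, and the fitted log2 fold change of -2.65 (SE 1.67; edgeR adjusted p = 0.521) turned to 0.46 (edgeR adjusted p = 0.954) without it and to 1.04 (edgeR adjusted p = 0.127) without both libraries that stood apart. Neither sign can be given to Cish in muscle from these libraries.

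Socs2, the inhibitor of growth hormone signaling, had groups that did not overlap in stomach. It was at 138, 147 and 164 CPM in controls and at 76.6, 101 and 103 CPM with SN-011. All SN-011 libraries lay below all controls, as for 15.2% of all genes tested in stomach, with means of 150 ± 13.1 and 93.3 ± 14.5 CPM (SD, n = 3 each). The log2 fold change was -0.68 (SE 0.24, 95% interval -1.24 to -0.13; edgeR adjusted p = 0.143; exact permutation p = 0.1), and DESeq2 put it past the threshold (adjusted p = 0.0324). Elsewhere Socs2 gave log2 fold changes of 0.09 in heart (SE 0.20; edgeR adjusted p = 0.829), -0.96 in muscle (SE 0.76; edgeR adjusted p = 0.623) and -0.57 in tongue (SE 0.25; edgeR adjusted p = 0.412). The muscle value was 0.15 without both libraries that stood apart.

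Socs7, which has been linked to insulin signaling, had values of opposite sign in stomach and muscle. In stomach it was at 10.9, 19.8 and 13.9 CPM in controls and at 28.3, 22.2 and 26.0 CPM with SN-011, all above all controls, as were 17.8% of all genes tested in stomach. The log2 fold change was 0.78 (SE 0.29; edgeR adjusted p = 0.151), and it passed the threshold in a joint fit of all 24 libraries (0.75, edgeR adjusted p = 0.00955), where 13.9% of all genes tested were called in stomach. In muscle, where it is abundant, it was at 68.9, 75.0 and 68.1 CPM in controls and at 45.2, 57.5 and 51.6 CPM with SN-011. All SN-011 libraries lay below all controls, as for 19.8% of all genes tested in muscle. The means were 70.7 ± 3.76 and 51.4 ± 6.18 CPM (SD, n = 3 each), and the log2 fold change was -0.46 (SE 0.13, 95% interval -0.77 to -0.15; edgeR adjusted p = 0.221). It passed the threshold without SN-011 replicate 2 (-0.55, edgeR adjusted p = 0.0423), where 7.40% of all genes tested were called. In heart and tongue its log2 fold changes were 0.10 (SE 0.13) and 0.17 (SE 0.14), with edgeR adjusted p of 0.684 and 0.609.

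Socs4, Socs5 and Socs6 were not called with SN-011 under any setting tried. Socs6, which binds the stem cell factor receptor Kit, was at 25.1, 24.7 and 25.4 CPM in muscle controls and at 22.1, 19.7 and 19.5 CPM with SN-011. These lay all below all controls, as for 19.8% of all genes tested in muscle, with a log2 fold change of -0.29 (SE 0.13; edgeR adjusted p = 0.373). In the other tissues its log2 fold changes ran from -0.21 to 0.21 and its groups overlapped. Socs4, which acts on the epidermal growth factor receptor, was at 28.7, 31.3 and 29.2 CPM in tongue controls and at 38.3, 32.0 and 33.8 CPM with SN-011, all above all controls, as were 9.40% of all genes tested in tongue, with a log2 fold change of 0.22 (SE 0.13; edgeR adjusted p = 0.4995). In heart, stomach and muscle its values were -0.17, -0.41 and -0.35, and its groups overlapped. Socs5, another inhibitor of that receptor, was at 8.31, 17.9 and 23.8 CPM in stomach controls and at 42.1, 20.1 and 29.5 CPM with SN-011, overlapping groups with a log2 fold change of 0.87 (SE 0.42; edgeR adjusted p = 0.240). Its values elsewhere lay between -0.13 and 0.06. In muscle no member's SN-011 libraries lay above all controls, an order held by 14.7% of all genes tested there.

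**Figure D2:**
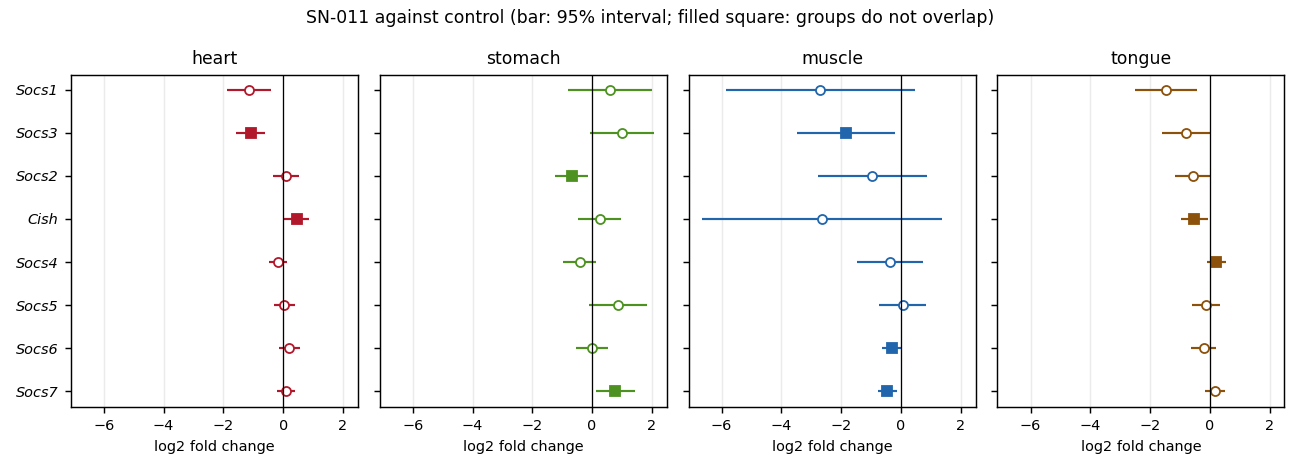
Fitted log2 fold change of SN-011 against control for the 8 members in each tissue, with 95% intervals as bars; filled squares mark members whose 3 SN-011 libraries all lay on one side of the 3 controls, and open circles mark overlapping groups. The intervals are narrow for Socs4 to Socs7 in heart and tongue and widest for Socs1 and Cish in muscle, where they run from -5.87 to 0.47 and from -6.67 to 1.37.

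The difference of the SN-011 effect between tissues was tested directly in a joint fit of the 24 libraries. Of the 6 pairs of tissues, stomach against muscle alone gave called members, 2 of 8, where 6.95% of 19731 genes tested were called. Socs7 differed by 1.30 on the log2 scale (SE 0.25, 95% interval 0.78 to 1.83; edgeR adjusted p = 0.0057), higher in stomach. Socs3 differed by 2.85 (SE 0.76, 95% interval 1.27 to 4.44; edgeR adjusted p = 0.0288), also higher in stomach. The Socs3 call was lost on leaving out any 1 of 5 libraries, among them control replicate 2 in muscle, without which the difference was 1.81 (edgeR adjusted p = 0.126), and SN-011 replicate 2 in muscle, without which it was 2.52 (edgeR adjusted p = 0.0527). DESeq2 called 3 members there. The median difference over all genes was 0.28 in this pair. The shares of all genes that DESeq2 called in the tests between tissues are not given here, so its counts of members have no background. In each of the other 5 pairs 0 of 8 members were called by this edgeR test (1 by DESeq2 for stomach against heart), where 2.01% of genes were called for stomach against heart, 0.821% for tongue against stomach, 0.0355% for tongue against muscle, 0.00507% for muscle against heart and 0% for tongue against heart. At an unadjusted p under 0.05 the same pairs held 2, 3, 1, 3 and 0 members. The shares of all genes at that looser threshold are not given here, so these counts cannot be set against the shares above. The Socs3 difference between heart and stomach was -2.05 (SE 0.74; edgeR adjusted p = 0.152).

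Levels of the members in control libraries showed which inhibitor each tissue held most RNA of. They are given as read counts scaled to merged exon length and library size (FPKM), so that genes of different length can be set side by side. Cish led in heart, with 12.5, 11.3 and 7.38 FPKM, followed by Socs1 at 5.42, 9.10 and 13.2 FPKM. Socs2 led in stomach, with 12.5, 12.9 and 13.9 FPKM. Socs7 led in muscle, with 15.3, 17.1 and 15.7 FPKM, and Socs3 led in tongue, with 9.59, 18.7 and 27.0 FPKM. In heart the libraries of Cish, Socs1 and Socs3 overlapped. In stomach Socs3 in control 2, at 14.3 FPKM, lay above every Socs2 library, and in tongue Socs1 in controls 2 and 3, at 13.2 and 11.5 FPKM, lay above the lowest Socs3 library. In muscle no library of any other member reached Socs7 but that of Cish in control 2, at 22.4 FPKM.

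**Figure D3:**
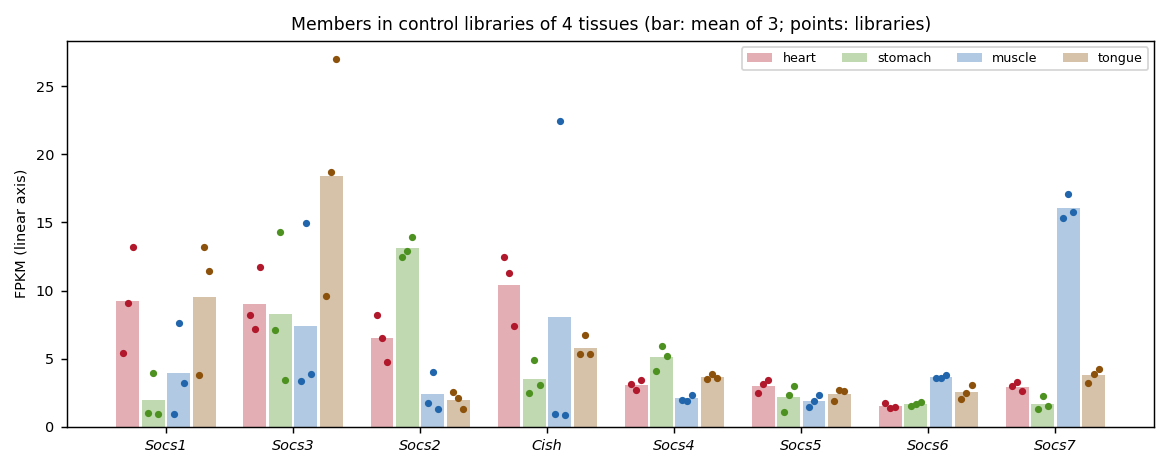
Level of the 8 members in the control libraries of heart, stomach, muscle and tongue, in FPKM on a linear axis; bars are means of 3 libraries and points are libraries. Socs7 stands out in muscle (mean 16.0 FPKM) and Socs2 in stomach (mean 13.1 FPKM), and the tall bar of Cish in muscle is made by 1 library.

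Socs7 had the widest order between tissues. Its control means were 16.0 ± 0.923 FPKM in muscle, 3.78 ± 0.499 in tongue, 2.95 ± 0.331 in heart and 1.70 ± 0.516 in stomach (SD, n = 3 each), a 9.43-fold range. All pairs differed in edgeR's quasi-likelihood test but heart and tongue (log2 difference -0.36, SE 0.18; adjusted p = 0.138). Socs2 had means of 13.1 ± 0.741 FPKM in stomach, 6.48 ± 1.73 in heart, 2.37 ± 1.48 in muscle and 1.97 ± 0.637 in tongue. Stomach stood above muscle and tongue (log2 differences 2.47 and 2.73; edgeR adjusted p = 0.0003 and 0.0002) and heart above muscle (1.45, edgeR adjusted p = 0.0224) and tongue (1.71, edgeR adjusted p = 0.0098). The call of heart against muscle was lost without heart control 1 or muscle control 1 or 3 (edgeR adjusted p 0.0817 to 0.117), and that of heart against tongue without tongue control 3 (edgeR adjusted p = 0.0588). Stomach and heart (edgeR adjusted p = 0.0853) and muscle and tongue were neighbours that did not pass the test.

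Socs6 was at 3.65 ± 0.105 FPKM in muscle, 2.52 ± 0.515 in tongue, 1.66 ± 0.154 in stomach and 1.53 ± 0.196 in heart, and each pair passed the test but stomach and heart. The call between muscle and tongue was kept in 9 of 17 alternatives, and DESeq2 gave it an adjusted p of 0.0646. Without tongue control 3 the calls of tongue against heart (edgeR adjusted p = 0.053) and stomach (edgeR adjusted p = 0.0969) were lost. Socs1 was at 9.50 ± 4.98 FPKM in tongue, 9.25 ± 3.90 in heart, 3.92 ± 3.38 in muscle and 1.94 ± 1.71 in stomach. Stomach stood below tongue (log2 difference -2.29, edgeR adjusted p = 0.0245) and heart (2.25 for heart minus stomach, edgeR adjusted p = 0.0232), and tongue and heart did not differ beyond their spread. The first of these calls was lost without control 1 or 3 of stomach or 2 or 3 of tongue (edgeR adjusted p 0.0617 to 0.095), and the second without control 1 or 3 of stomach or 3 of heart (edgeR adjusted p 0.0836 to 0.0908). Socs4 was at 5.09 ± 0.932 FPKM in stomach, 3.66 ± 0.209 in tongue, 3.10 ± 0.362 in heart and 2.08 ± 0.260 in muscle, with muscle below stomach (edgeR adjusted p = 0.0013) and tongue (edgeR adjusted p = 0.0365). The Socs4 call between muscle and tongue was kept in 10 of 17 alternatives and lost on leaving out any of the 6 libraries (edgeR adjusted p up to 0.113).

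For the remaining members no pair of tissues passed the test. Socs3 was at 18.4 ± 8.70 FPKM in tongue, 9.02 ± 2.37 in heart, 8.28 ± 5.50 in stomach and 7.40 ± 6.56 in muscle, and the widest of these gaps had an edgeR adjusted p of 0.0537. Cish was at 10.4 ± 2.66 FPKM in heart, 8.08 ± 12.4 in muscle, 5.79 ± 0.823 in tongue and 3.49 ± 1.23 in stomach. Socs5 was even, at 3.01 ± 0.477 FPKM in heart, 2.37 ± 0.448 in tongue, 2.15 ± 0.957 in stomach and 1.88 ± 0.413 in muscle. Of the 8 members, 4 were called between muscle and stomach, where 51.6% of 19731 genes were called, 4 between tongue and stomach (36.9%), 3 between muscle and heart (33.7%), 3 between tongue and muscle (38.1%), 2 between stomach and heart (42.5%) and 2 between tongue and heart (29.1%). With 8 members, these counts were not far from the shares of all genes.

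The genes that Socs1 and Socs3 answer to or act on were read from lists set by pathway, with earlier results of these data known. Of 11 interferon targets, 11 had a negative log2 fold change with SN-011 in heart, 11 in stomach, 10 in muscle and 11 in tongue, with medians of -0.58, -1.12, -0.82 and -0.82. A single one was called, the chemokine gene Cxcl10 in heart, at 111 CPM in controls and 39.5 CPM with SN-011 (log2 fold change -1.49, edgeR adjusted p = 0.033). Irf1, an early interferon target, gave -0.75 in heart, -0.03 in stomach, -0.82 in muscle and -0.82 in tongue. Usp18, an inhibitor of the type I interferon receptor that is also such a target, gave -0.17, -1.30, 0.71 and -0.35 in the same order, and in muscle all its SN-011 libraries lay above the controls (edgeR adjusted p = 0.095). In stomach these genes thus had negative values while the value of Socs1 was positive, and neither passed the test.

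The gp130 arm around Socs3 was mixed. Of its 10 targets, 9 were tested in heart, 10 in stomach, 9 in muscle and 9 in tongue, and edgeR called 0 in each. At an unadjusted p under 0.05 it marked 3 higher and 1 lower in heart, 5 and 1 in stomach, 3 and 0 in muscle and 2 and 1 in tongue. Of all genes tested, 22.4%, 24.6%, 14.8% and 12.5% were so marked in either direction. The median log2 fold changes of the targets were -0.05, 0.83, 0.56 and -0.28. Bcl3, a coactivator of NF-kappaB, gave -0.74, 0.21, -0.77 and -1.06, signs like those of Socs3 in each tissue. Stat3 gave 0.05, 0.23, -0.22 and -0.50, the shared receptor subunit Il6st -0.18, 0.26, 0.30 and -0.08, and the oncostatin M receptor gene Osmr 0.07, 1.05, 0.55 and 0.10. Named after their values were seen, Lcn2, Serpina3n and Cebpd had positive log2 fold changes in all 4 tissues. For Lcn2, an acute-phase iron carrier, these were 1.49, 2.51, 2.62 and 0.81. Serpina3n, a protease inhibitor, gave 0.73, 2.42, 1.97 and 0.60, and Cebpd, a transcription factor, 0.87, 2.09, 2.36 and 1.07. In heart, muscle and tongue these values stood opposite in sign to that of Socs3.

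Around Cish and Socs2, the STAT5 targets numbered 7, of which 6 were tested in muscle, and edgeR called 0 in any tissue. At an unadjusted p under 0.05 it marked 1 in heart, 3 in stomach, 1 in muscle and 2 in tongue. The shares of all genes so marked were 22.4%, 24.6%, 14.8% and 12.5%. Igf1, the growth hormone target insulin-like growth factor, gave a log2 fold change of -0.93 in heart (edgeR adjusted p = 0.062), 0.90 in stomach, 0.01 in muscle and 0.17 in tongue. The growth hormone receptor gene Ghr gave -0.26, -0.09, -0.58 and -0.50, with an edgeR adjusted p of 0.174 in muscle and 0.349 in tongue. Stat5b stayed between -0.15 and 0.16. Among the receptor kinases restrained by Socs4 to Socs7, Kit gave -1.13 in heart (edgeR adjusted p = 0.057), 0.79 in stomach, -1.01 in muscle and -0.43 in tongue, Insr 0.36, -0.05, 0.10 and 0.19, and Egfr -0.33, -0.06, 0.08 and -0.21. In the ligase recruited by the SOCS box, Cul5 gave 0.07, -0.13, -0.15 and -0.23, Elob 0.38, -0.52, 0.47 and 0.03, and Eloc 0.13, -0.56, 0.26 and -0.13. Of its 6 listed genes edgeR called 0 in any tissue. At an unadjusted p under 0.05 it marked 1 in heart, 1 in stomach, 3 in muscle and 0 in tongue, beside the same shares of all genes.

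The counts for the other lists were as follows, in the order heart, stomach, muscle and tongue. The 4 JAK kinase genes gave 4, 2, 3 and 3 negative log2 fold changes. Of the ligands, 9, 9, 4 and 10 of 16 were tested, with 7, 3, 2 and 4 negative. Interferon receptors (4 genes) gave 3, 2, 2 and 3 negative values and gp130 receptors (7 genes) 3, 2, 1 and 3. STAT5-linked receptors gave 7 of 8, 2 of 8, 4 of 7 and 6 of 7 negative values, receptor kinases 5 of 7, 4 of 7, 3 of 6 and 4 of 7, and other negative regulators 7, 6, 4 and 6 of 11. Over these lists edgeR's quasi-likelihood test called 0 of 50 distinct genes tested in heart, 50 in stomach, 43 in muscle and 50 in tongue. It marked 12, 16, 7 and 7 of them at an unadjusted p under 0.05. Of all genes tested, 22.4%, 24.6%, 14.8% and 12.5% were so marked, and the counts were not far from these shares.

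Across the 24 libraries, each tissue centred on its own mean, Socs1 and Socs3 had the most alike patterns of any pair of members. Their Pearson correlation was 0.90 and their Spearman correlation 0.90, and the first was 0.86 without both muscle libraries that stood apart and 0.85 with each group of 3 centred on its own mean. These correlations are descriptive, since libraries of a tissue share treatment, dissection and depth. Socs2 and Cish reached 0.84, but 0.34 without both muscle libraries. Bcl3 followed Socs1 at 0.81 and Socs3 at 0.76, and Irf1 followed them at 0.72 and 0.59. With each group centred on its own mean, Bcl3 was at 0.75 and 0.71 and Irf1 at 0.51 and 0.35. The other pathway genes compared followed Socs1 and Socs3 less closely than Bcl3 and Irf1 did. With each tissue centred, Osmr was at -0.14 and -0.08, Igf1 at -0.09 and 0.12, and Ghr at 0.51 and 0.31.

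**Figure D4:**
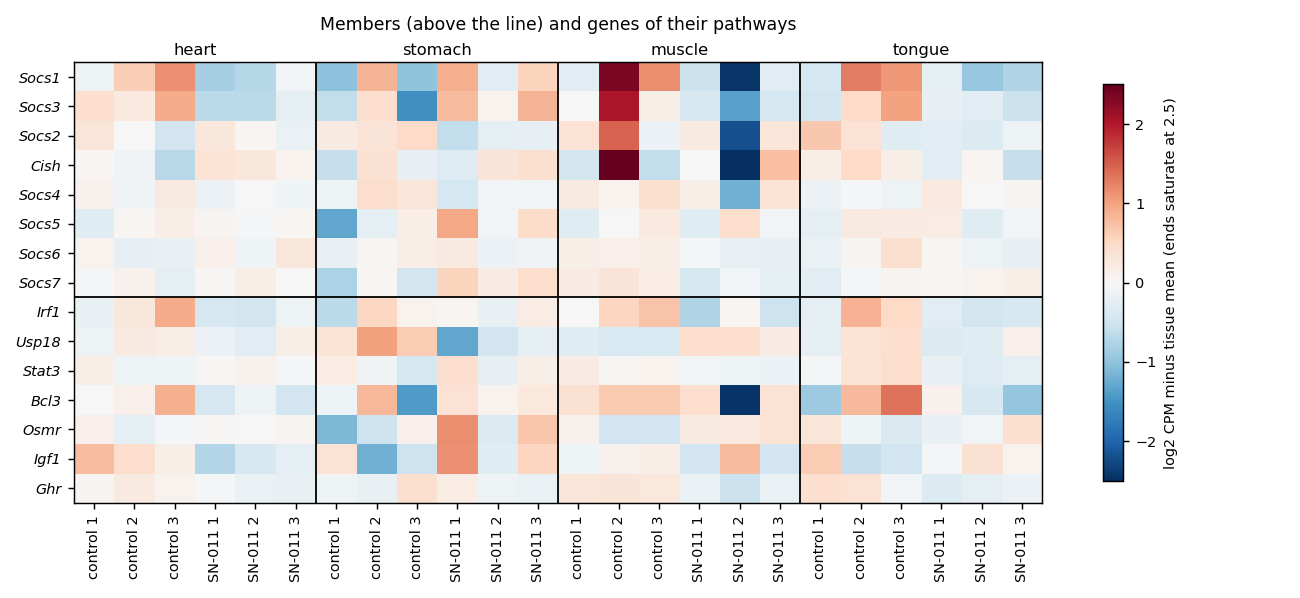
Log2 CPM minus the tissue mean (colour, ends saturating at 2.5) of the 8 members, above the line, and 7 genes of their pathways in the 24 libraries. The rows of Socs1 and Socs3 run alike over most libraries. Control 2 and SN-011 replicate 2 of muscle carry the strongest colours for Socs1, Socs2 and Cish. For Socs3 the strongest colour is that of muscle control 2, followed by stomach control 3.

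Among 13198 genes tested in all 4 tissues, the 3 nearest to Socs1 were Nhsl1 (0.89), Hap1 (0.86) and Plxna1 (0.85). The nearest to Socs3 were Plxna1 (0.86), Nrarp (0.82) and Nhsl1 (0.82), and these values were 0.79 to 0.82 without both muscle libraries. The nearest to Socs2 were Ubr3 (0.90), Rcan3 (0.89) and Fkbp9 (0.88), at 0.74, 0.61 and 0.62 without them. For Cish, Mettl4 (0.85), Prepl (0.81) and Cdk12 (0.79) came nearest, and 0.44, 0.46 and 0.49 were left without them, so that the likeness of Cish rested on those libraries.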

How the data were processed

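Poly(A)+ RNA of 24 tissue samples was sequenced in 150-base pairs. The authors deposited raw read counts per Ensembl gene for each sample. The submitters' processing notes name HISAT2, HTSeq and mm10, the study's methods name Trimmomatic, hisat2 and featureCounts, and the versions and strand setting are not given in the sources used here. Replicates were not pooled. The labels and methods also differ on the sequencer and on the dosing.

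Counts were analysed with edgeR 4.0.16 in R 4.3.3. Genes were filtered with filterByExpr (minimum count 10, minimum total count 15), scaled by TMM and fitted by quasi-likelihood, each tissue alone, with Benjamini-Hochberg adjustment across the genes of each fit and a threshold of 0.05. Levels between tissues and differences of effect came from a joint fit of 24 samples, taken as independent. A fit that took same-numbered samples as 1 mouse was an alternative. DESeq2 1.42.0, other scaling, other filters, edgeR's exact test, a replicate block and leaving out each library were alternatives. CPM used TMM-scaled library sizes and FPKM also the merged exon length in GENCODE M21. Correlations used log2(CPM + 0.5). Scripts were tested on simulated data.

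The members and gene lists were chosen with earlier results of these data known. Named genes were the 8 members, Irf1, Usp18, Stat3, Il6st, Bcl3, Osmr, Stat5b, Ghr, Igf1, Insr, Egfr, Kit, Cul5, Elob and Eloc, any listed gene called in a tissue, the 3 genes most like Socs1, Socs2, Socs3 and Cish, and Xist and Ddx3y; 1 further gene of this rule is not reported here. Cell-type markers were fixed lists, and their sums were compared between groups in each tissue. Same-numbered controls and SN-011 libraries did not deviate together (mean correlation of deviations -0.06 in heart, 0.07 in stomach, 0.04 in muscle and -0.31 in tongue), so the numbers were not taken to pair samples. Sequences came from RefSeq promoter windows of 4 members, searched without chromosome 18.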

Additional observations from a re-analysis of the deposited data

Results flagged for a closer look

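The difference of the SN-011 effect between stomach and muscle drew attention in 2 members, because the test of the difference itself passed the threshold in each. Socs3 differed by 2.85 on the log2 scale, with 0.99 in stomach and -1.85 in muscle when each tissue was fitted alone, and the difference is higher in stomach. Socs7 differed by 1.30, with 0.78 in stomach and -0.46 in muscle. Groups of 3 libraries were too small for a test of single libraries that lie apart.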

How the results depend on the processing

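Most values held their direction and their side of the threshold. Among 112 alternative values in heart, 95 did, as did 104 of 112 in stomach, 107 of 118 in muscle and 109 of 112 in tongue. The number of members called with SN-011 in heart was 0 and became 1 with library size alone or at least 10 counts in every sample, 2 with no filter on low counts, DESeq2 or edgeR's exact test, and 0 to 1 on leaving out a library. It became 1 with DESeq2 in stomach, muscle and tongue, 1 in stomach in the joint fit, and on leaving out a library 0 to 1 in muscle and 0 to 2 in tongue. Within a tissue, same-numbered control and SN-011 libraries shared only a number. With the replicate block as a term 2 members were called in heart (Socs1 and Socs3) and 0 in the other tissues. Control levels gave 4 called members with DESeq2 for heart against stomach and 5 for heart against muscle, and on leaving out a library 1 to 2 for heart against stomach, 0 to 2 for heart against tongue, 2 to 4 for stomach against tongue and 1 to 3 for muscle against tongue. Differences of effect gave 1 with DESeq2 for heart against stomach, and on leaving out a library 0 to 1 there and 1 to 2 for stomach against muscle. For these pairs of tissues the shares of all genes called by DESeq2 are not given here. Over all genes the count called was 137 in heart and 1 to 1888 under alternatives, 0 and 0 to 2738 in stomach, 2 and 0 to 1103 in muscle, and 0 and 0 to 2135 in tongue. The cause of these shifts was not tested.

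Signs turned only where values were near 0 or muscle libraries decided them. Library size alone, without TMM, put the median over all genes at -0.16 in heart, 0.18 in stomach, -0.31 in muscle and 0.06 in tongue, so that relative to this median the members named next kept their sign. With it the log2 fold change was -0.067 for Socs2, -0.11 for Socs5 and -0.043 for Socs7 in heart, 0.16 for Socs6 in stomach and -0.18 for Socs5 in muscle. Socs6 in stomach was 0.043 with at least 10 counts in every sample, and Socs5 in muscle -0.056 in the joint fit. Without both muscle libraries that stood apart, Socs2 was 0.15, Socs5 -0.20 and Cish 1.04. Leaving out 1 library gave -0.10 to 0.27 for Socs2 and -0.10 to 0.14 for Socs5 in heart, -0.13 to 0.058 for Socs6 in stomach, and in muscle -0.64 to 0.0094 for Socs4, -0.19 to 0.22 for Socs5 and -3.52 to 0.46 for Cish. A filter of at least 10 counts in every sample left Socs1 and Cish out of the muscle test. In muscle, SN-011 replicate 2 had 0 counts of Socs1 and Cish, at or under the floor of 3 counts.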
